A study of Mus musculus with 18 samples.

Results

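The respiratory chain and ATP synthase of mitochondria are built from subunits of nuclear and of mitochondrial origin, and the mRNAs of these subunits were followed in mouse fibroblasts moved from culture into a living kidney. Members were the protein-coding genes whose symbol begins with Nduf (assembly factors named Ndufaf left out), Uqcr, Cox4 to Cox8, Atp5, mt-Nd, mt-Co, mt-Cyt or mt-Atp, together with Sdha, Sdhb, Sdhc and Sdhd. The rule found 98 of 38924 genes, of which 85 are nuclear and 13 are encoded by mitochondrial DNA. Among the nuclear members, 38 belong by their names to complex I, 4 to complex II, 8 to complex III, 18 to complex IV and 17 to complex V. Among the mitochondrial members, 7 belong to complex I, 1 to complex III, 3 to complex IV and 2 to complex V. A symbol is not proof of membership in a complex: the product of Ndufa4 is now placed in complex IV, and Cox7a2l encodes a factor that joins complexes into supercomplexes.

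Fibroblasts were grown from the heart, kidney and tail of 10-week-old male Rosa mT/mG mice, whose cells carry a membrane TdTomato reporter. After 10 days in culture, cells were placed on gelatin foam under the kidney capsule of syngeneic recipients aged 10 to 11 weeks. The transplanted groups HFs, KFs and TFs are heart, kidney and tail cells recovered 3 days later by sorting for TdTomato and the absence of CD45. The cultured groups HFc, KFc and TFc are leftover cells of the same preparations, replated at 50000 per well. The methods do not state how long the replated cells were kept. Each of the 6 groups has 3 libraries, 18 in all, and all groups share the reporter allele. The cultured cells were not sorted in the same way and had no foam or host, so the site, the sort and the time in tissue cannot be told apart in any comparison of transplanted with cultured cells.

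Oxidative phosphorylation passes electrons from NADH through complex I, or from succinate through complex II, to complex III, cytochrome c and complex IV, and the proton gradient so formed drives ATP synthase, also called complex V. Mitochondrial DNA encodes the membrane core of complexes I, III, IV and V, and every subunit of complex II is nuclear. The mitochondrial genes are transcribed as long precursors from both strands and lie beside the ribosomal RNA genes, whereas each nuclear subunit has its own promoter, and factors such as NRF1, GABP and YY1 are known to act on many of these promoters.

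The promoters of 4 nuclear members are shown because the results turn on their genes. Ndufa11, Ndufb6 and Cox6a1 are among the 6 members with the largest falls in heart cells, and Cox6b2 differed most between organs in culture. Ndufb4 and Uqcr10, also among these 6, had promoters without a match to any motif searched, and Uqcrq had no promoter in the set. The promoters shown therefore do not stand for all the members with the largest falls. The letters are the 250 bases before the annotated start, read 5′ to 3′ on the gene's strand, from RefSeq on build GRCm38.p6. They are chr17:56717512-56717761 on the plus strand for Ndufa11, chr4:40279422-40279671 on the minus strand for Ndufb6, chr5:115348959-115349208 on the minus strand for Cox6a1 and chr7:4753095-4753344 on the minus strand for Cox6b2. Capitals mark a match to CGCATGCG, the palindromic core of the NRF1 site, or to CCGGAAG, the site of GABP, on either strand.
Ndufa11 promoter: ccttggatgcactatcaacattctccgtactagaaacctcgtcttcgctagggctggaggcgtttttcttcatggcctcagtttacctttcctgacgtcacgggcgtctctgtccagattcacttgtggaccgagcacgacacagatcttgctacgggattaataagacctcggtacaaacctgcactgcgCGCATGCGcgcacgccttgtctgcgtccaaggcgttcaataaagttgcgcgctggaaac
Ndufb6 promoter: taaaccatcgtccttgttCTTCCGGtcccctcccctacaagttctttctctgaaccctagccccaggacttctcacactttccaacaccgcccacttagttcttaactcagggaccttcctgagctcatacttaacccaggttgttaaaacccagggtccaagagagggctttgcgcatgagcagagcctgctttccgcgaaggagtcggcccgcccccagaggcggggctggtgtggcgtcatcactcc
Cox6a1 promoter: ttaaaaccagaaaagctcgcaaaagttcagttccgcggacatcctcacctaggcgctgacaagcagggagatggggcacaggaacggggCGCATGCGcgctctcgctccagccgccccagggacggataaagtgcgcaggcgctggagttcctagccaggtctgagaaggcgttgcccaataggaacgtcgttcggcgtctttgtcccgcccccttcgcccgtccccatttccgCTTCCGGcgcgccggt
Cox6b2 promoter: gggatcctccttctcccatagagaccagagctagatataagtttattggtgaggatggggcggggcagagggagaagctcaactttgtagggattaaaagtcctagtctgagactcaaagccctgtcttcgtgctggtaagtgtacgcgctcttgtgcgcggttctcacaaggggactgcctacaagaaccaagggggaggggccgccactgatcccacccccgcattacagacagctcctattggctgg
The NRF1 letters begin at position -59 in Ndufa11 and -161 in Cox6a1, and the GABP letters at -232 in Ndufb6 and -16 in Cox6a1, counted from the start of the gene.

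Promoters were found for 67 of the 85 nuclear members. The motif search covered the 250 bases before the start and also a short stretch after it, which is not among the letters shown above. CGCATGCG was present in 9 of the 67 (13.4%) against 2.07% of the promoters of 27025 genes, and the members were Ndufa8, Ndufa11, Uqcrc1, Uqcr11, Cox6a1, Atp5g2, Atp5j, Atp5k and Atp5l. CCGGAAG was present in 16 (23.9%) against 9.93%, AAGATGG, the site of YY1, in 10 (14.9%) against 7.28%, and ACGTG, the core of the hypoxia response element, in 16 (23.9%) against 21.8%. All were searched on both strands, and matches of different motifs shared bases in 0 of the 67 promoters. A match of letters is a description of the sequence and not a measured site.

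Library totals lay between 17927838 and 32245168 counts. Levels below are TMM-scaled CPM, counts scaled to a common library size by edgeR, and 3 counts, taken as the floor of detection, correspond to 0.0890 to 0.180 CPM on the TMM-scaled library totals. Of the 98 members, 93 passed the filter on low counts and were tested, 80 nuclear and all 13 mitochondrial. The others were Cox6a2, the striated muscle isoform of COX6A, with 54 counts over all libraries, Cox7b2 with 2, Cox8b with 1, and Cox8c and Atp5g2 with 0. Cox6a2 reached 13, 9 and 18 counts in KFc and at most 3 in any other library, so its muscle isoform was near the floor in heart fibroblasts. Atp5g2, a gene for the c ring of ATP synthase, was listed at 0 everywhere, while Gm10231, a processed pseudogene that shares 23.0% of its 75-base windows, held 7699 counts. A level of Atp5g2 therefore cannot be read from these counts.

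The 3 fibroblast populations had nearly the same balance of the chain in culture. The 13 mitochondrial genes took 1.10% ± 0.020 (SD, n = 3) of all counts in HFc, 1.11% ± 0.015 in KFc and 1.12% ± 0.034 in TFc. The nuclear members took 0.407% ± 0.0032, 0.394% ± 0.0062 and 0.373% ± 0.0063. The ratio of mitochondrial to nuclear counts lay between 2.65 and 3.13 in the 9 cultured libraries. It was 2.65 to 2.73 in HFc, 2.76 to 2.88 in KFc and 2.91 to 3.13 in TFc, without overlap between the groups.

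After transplantation the mitochondrial share was larger and the nuclear share smaller in every library. The mitochondrial share was 1.71%, 1.96% and 2.44% in the HFs libraries, 1.93%, 1.55% and 1.65% in KFs and 1.52%, 1.75% and 1.52% in TFs. The nuclear share was 0.239%, 0.256% and 0.224% in HFs, 0.290%, 0.356% and 0.284% in KFs and 0.319%, 0.289% and 0.282% in TFs. None of the 9 transplanted libraries overlapped the 9 cultured ones in either share. The ratio of mitochondrial to nuclear counts was 8.56 ± 2.03 in HFs, 5.61 ± 1.17 in KFs and 5.41 ± 0.649 in TFs (SD, n = 3), and the highest single library was HFs replicate 3 at 10.9. In bulk RNA a share of this kind does not separate fewer cells of a type from less RNA per cell.

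**Figure D1:**
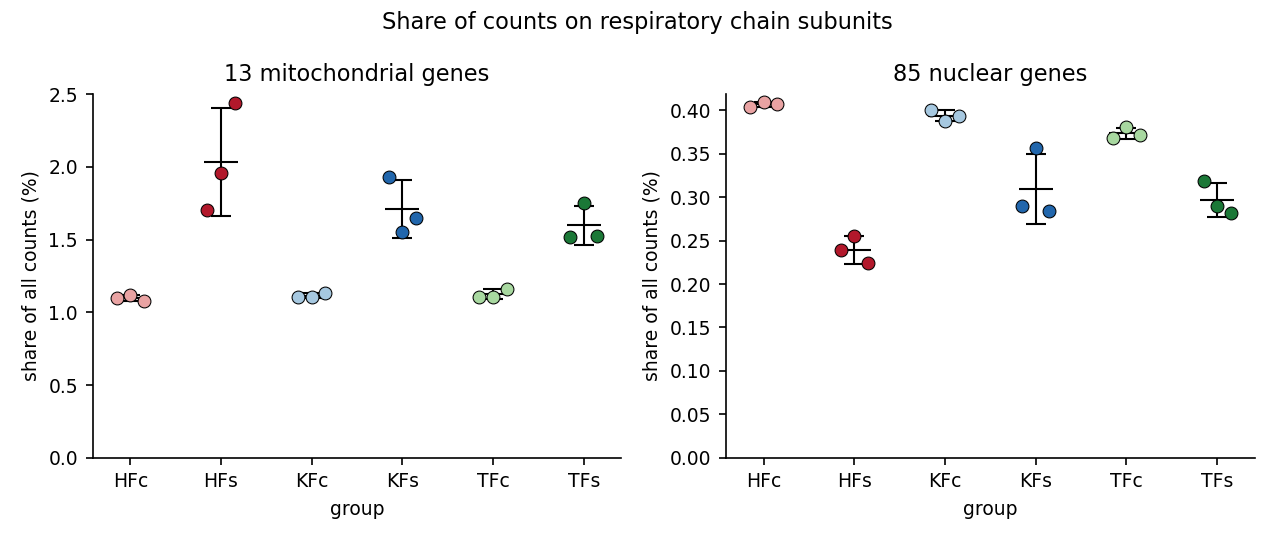
Share of all counts (percent) taken by the 13 mitochondrial genes (left) and the 85 nuclear members (right), with 1 point per library, a bar at the mean of each of the 6 groups and error bars for the SD of 3 libraries. The 9 transplanted libraries lie above the cultured ones in the mitochondrial panel (1.52% to 2.44%) and below them in the nuclear panel (0.224% to 0.356%).

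The counts of the ribosomal RNAs of mitochondria moved with those of the mitochondrial mRNAs. They are counts after library preparation, and the part of the library kit in the share of ribosomal RNA was not tested. mt-Rnr1 and mt-Rnr2 together took 6.20% to 7.14% of counts in culture and 8.33% to 14.7% after transplantation, and the ratio of mitochondrial mRNA to rRNA counts stayed between 0.159 and 0.191 in all 18 libraries. mt-Rnr1 rose in all 3 comparisons, with log2 fold changes of 1.07, 0.57 and 0.76 for heart, kidney and tail cells. mt-Rnr2 rose in heart and tail cells, by 0.70 and 0.47, and was at 0.26 in kidney cells (adjusted p = 0.224).

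Markers of other cells also moved with transplantation. All 21 proximal tubule markers were above the floor in at least 1 library of each transplanted group. By the same rule it was 9 in HFc and TFc and 11 in KFc, where 7 to 8 were at 0 in every library. Their summed level was 227 to 251 CPM in HFc and 245 to 2036 in HFs, and 120 to 129 in TFc and 262 to 600 in TFs. In heart and tail cells 20 of the 21 rose. In kidney cells 15 of the 21 rose and 0 fell, with a median log2 fold change of 4.76, while their sum was 280 to 304 CPM in KFc and 202 to 269 in KFs. Most of the KFc sum came from Ass1, at 174 to 189 CPM, and Lrp2, at 92.0 to 99.2, which were already high in culture. HFs replicate 2 held the largest proximal tubule sum, at 2036 CPM, against 329 in replicate 1 and 245 in replicate 3. HFs replicate 3 held the largest mitochondrial share and the largest erythroid sum, at 42.5 CPM. The erythroid sum was 38.4 CPM in HFs replicate 1, which had the smallest mitochondrial share of the HFs libraries, and 0.132 in replicate 2. The distal nephron sum of HFs replicate 3 was 65.8 CPM, between those of replicate 1 (14.3) and replicate 2 (92.1). Distal nephron markers summed to at most 1.30 CPM in culture and to 14.3 to 92.1 after transplantation, erythroid markers to at most 0.209 and to 0.120 to 42.5, and endothelial markers to 38.8 to 70.1 and 59.4 to 110. Leukocyte markers summed to 370 to 388 CPM in KFc and 36.8 to 126 in KFs, to 163 to 192 in TFc and 37.0 to 42.0 in TFs, and to 75.0 to 88.1 in HFc and 80.1 to 140 in HFs, and 4 of the 7 tested fell in kidney and in tail cells. Muscle markers summed to 95.4 to 110 CPM in HFc and 5.89 to 11.7 in HFs, to 39.6 to 43.2 in KFc and 4.89 to 35.2 in KFs, and to 7.72 to 8.99 in TFc and 4.66 to 6.15 in TFs. Of the 5 muscle markers tested, 2, 3 and 2 rose and 2, 1 and 1 fell in heart, kidney and tail cells. Their median log2 fold changes were 1.81, 1.84 and 1.02, so the lower sums do not stand for each marker. The 10 fibroblast markers were above the floor in at least 1 library of every group and summed to 22144 to 44021 CPM in culture and 30138 to 161590 after transplantation. The part of host tissue and of other cells in the shares was not tested.

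KFs replicate 3 went against its labels. It held 1491.5 CPM of Xist and a sum of 0.722 CPM over Y-linked genes, while the donors were male. Without it, 48 of 51 named fold changes of kidney cells kept their direction and call. The calls of Sdhb and Uqcrfs1 were lost, and Ndufs3, which was not called, went from -0.01 to 0.05. Among the larger changes, mt-Co3 was at 0.95, mt-Cytb at 0.88, Ndufa11 at -1.26 and Uqcrq at -0.89 without it. The kidney values below include it unless they are given as without it.

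The first question is what transplantation did to each origin of subunit. A member was called at an adjusted p under 0.05 in edgeR's quasi-likelihood test, with p-values adjusted over all 16577 genes. In heart cells 81 of 93 members were called, in kidney cells 64 and in tail cells 55. Of all genes tested, 56.4%, 48.8% and 38.8% were called in these comparisons. All 13 mitochondrial genes rose in heart cells, 11 in kidney cells and 10 in tail cells, where 28.0%, 26.1% and 18.6% of all genes rose. Of the 80 nuclear members, 65, 51 and 43 fell, where 28.4%, 22.7% and 20.2% of all genes fell, and 3, 2 and 2 rose.

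The median log2 fold change of the nuclear members was -0.67 in heart, -0.47 in kidney and -0.39 in tail cells. That of the mitochondrial members was 1.08, 0.64 and 0.56, and that of all genes 0.05, 0.09 and 0.00. Past a log2 fold change of 1 in either direction were 28 members in heart cells, 9 in kidney cells and 3 in tail cells, where 27.7%, 22.6% and 16.5% of all genes lay past it. The libraries of the groups did not overlap for 13 mitochondrial and 2 nuclear members that were higher in heart cells and 69 nuclear members that were lower, against 33.3% and 34.0% of all genes. In kidney cells it was 11 and 2 higher and 53 lower, against 26.2% and 25.0%, and in tail cells 13 and 4 higher and 61 lower, against 29.3% and 31.2%. Most changes were thus called but smaller than a log2 fold change of 1. Leaving out KFs replicate 3 gave 84 called members in the heart, 61 in the kidney and 70 in the tail comparison, with kidney medians of -0.38 for nuclear and 0.68 for mitochondrial members. When only KFs and KFc were fitted, 36 members were called, 9 higher and 27 lower. The share of all genes called in that fit is not given here. The median of the nuclear members stayed negative, and that of the mitochondrial members positive, under every alternative that was run.

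The same direction was met in all 3 comparisons for most members. Of the 80 nuclear members, 36 fell in all 3 (45%), where 10.9% of all genes did, and 70 had a negative log2 fold change in all 3. Of the 13 mitochondrial genes, 10 rose in all 3 (76.9%), where 10.0% of all genes did. Cox4i2 and Ndufa4l2 were the nuclear members that rose in all 3. Cox7a1, Cox7c, Ndufc1, Ndufs3, Ndufv3 and Sdhd were called in none.

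**Figure D2:**
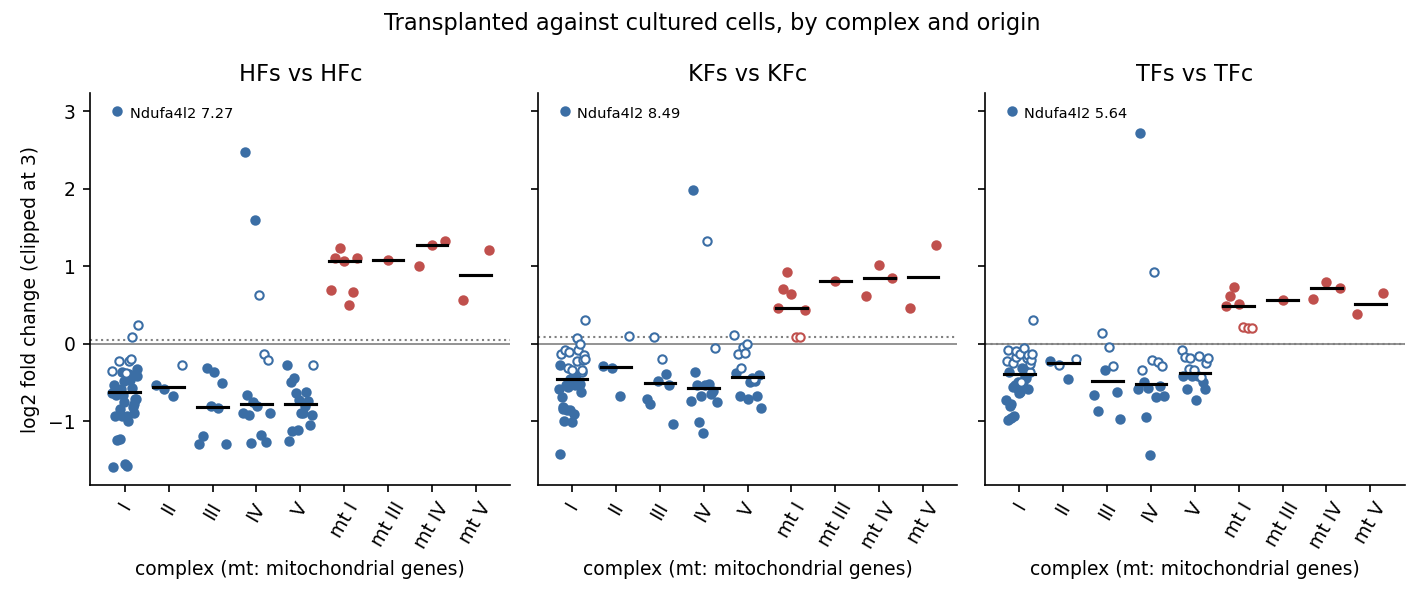
Log2 fold change of transplanted against cultured cells for each tested member, by complex and origin, in heart, kidney and tail cells, with 1 point per gene (filled where called at an adjusted p under 0.05, open where not), a bar at the median and a dotted line at the median of all genes. Points above 3 are drawn at 3 and labelled with their value. Nuclear medians lie below 0 in every complex (from -0.82 to -0.25) and mitochondrial medians above 0 (from 0.46 to 1.27).

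By complex, the nuclear subunits of complex III moved most in heart cells, with all 8 lower and a median of -0.82. Complex V had 15 of 16 lower (median -0.77), complex IV 9 of 14 lower and 2 higher (-0.78), complex I 30 of 38 lower and 1 higher (-0.62) and complex II 3 of 4 lower (-0.56). In kidney cells the nuclear medians were -0.45 for complex I, -0.30 for II, -0.51 for III, -0.57 for IV and -0.42 for V, with 22, 3, 6, 11 and 9 members lower. In tail cells they were -0.39, -0.25, -0.49, -0.52 and -0.38, with 21, 2, 5, 8 and 7 lower. Complex II, which has no mitochondrial gene, had the nuclear median nearest to 0 in all 3 comparisons, over 4 genes, and no test of a difference between complexes was made.

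The catalytic core moved less than the rest by its medians. This grouping of 17 nuclear core genes, which hold the redox centres, the protease-related core proteins of complex III or the catalytic head of ATP synthase, was compared with the other members after values had been seen and carries no test. The core had medians of -0.53, -0.21 and -0.26 in heart, kidney and tail cells, with 14, 7 and 6 of 17 lower. The other 63 nuclear members had medians of -0.75, -0.52 and -0.49, with 51, 44 and 37 lower. Within complex I, 5, 1 and 2 of the 7 core genes were lower, against 25, 21 and 19 of the 31 others.

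The mitochondrial genes of complex IV gave the largest medians among mitochondrial genes in heart cells. mt-Co3, a core subunit of cytochrome c oxidase, was at 452, 480 and 438 CPM in HFc and at 987, 1082 and 1368 in HFs. In kidney cells mt-Co3 was at 415, 423 and 447 in KFc and 977, 722 and 616 in KFs, and in tail cells at 444, 468 and 494 in TFc and 711, 871 and 737 in TFs. No transplanted library overlapped its cultured group, and the log2 fold changes were 1.33 (SE 0.152), 0.85 (SE 0.150) and 0.72 (SE 0.150), with adjusted p of 3.13e-06, 0.000261 and 0.00145. mt-Co2, which carries the first copper centre, rose by 1.27, 1.01 and 0.80 on the log2 scale. mt-Co1, the subunit that holds the haem and copper site where oxygen is reduced, rose by 1.00, 0.61 and 0.57 and was the member with the most counts.

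mt-Cytb, the single mitochondrial subunit of complex III, lay at 1483 to 1568 CPM in HFc and at 2723, 3176 and 3734 in HFs. It lay at 1346 to 1393 in KFc and 2819, 2372 and 1991 in KFs, and at 1326 to 1400 in TFc and 1879, 2285 and 1828 in TFs. Its groups did not overlap in any comparison, and its log2 fold changes were 1.08 (SE 0.135), 0.81 (SE 0.135) and 0.56 (SE 0.134). Of the 2 genes of the proton channel side of ATP synthase, mt-Atp8 rose by 1.21, 1.27 and 0.65 and mt-Atp6 by 0.56, 0.46 and 0.38. The reading frames of this pair overlap by 43 bases on the same strand. The tail call of mt-Atp6, at an adjusted p of 0.0439, was lost without any single TFc or TFs library and in the fit blocked by replicate number (adjusted p = 0.0607), and its kidney call without KFs replicate 1 (0.076) or KFc replicate 3 (0.0515).

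The 7 mitochondrial genes of complex I form its membrane arm and were less uniform. mt-Nd2, mt-Nd3 and mt-Nd4 rose in all 3 comparisons, by 1.11, 0.70 and 0.62, by 1.24, 0.93 and 0.73 and by 1.07, 0.64 and 0.51 for heart, kidney and tail cells. mt-Nd1 rose by 0.69, 0.46 and 0.48. mt-Nd5 and mt-Nd4l were called in heart cells, by 0.67 and 0.50. In kidney cells both had a log2 fold change of 0.08 (adjusted p = 0.640 and 0.462), and in tail cells 0.20 and 0.21 (adjusted p = 0.251 and 0.0751). The tail calls of mt-Nd1 and mt-Nd3 were lost without TFs replicate 2 (adjusted p = 0.0585 and 0.0548), and the kidney call of mt-Nd1 without KFs replicate 1 (0.0705).

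mt-Nd5 was at 1818, 1861 and 1868 CPM in KFc and at 2365, 1695 and 1805 in KFs, so that 2 of the 3 transplanted libraries lay below the cultured ones. mt-Nd6 is the one protein gene read from the opposite strand and overlaps mt-Nd5 by 14 bases. mt-Nd6 was at 184, 194 and 173 CPM in HFc and 308, 346 and 524 in HFs, a log2 fold change of 1.10 (SE 0.168). It rose by 0.44 in kidney cells, a call at an adjusted p of 0.0391 that was lost without any KFc library, without KFs replicate 1 and in the blocked fit (adjusted p = 0.0523), and it was at 0.20 in tail cells (adjusted p = 0.372).

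**Figure D3:**
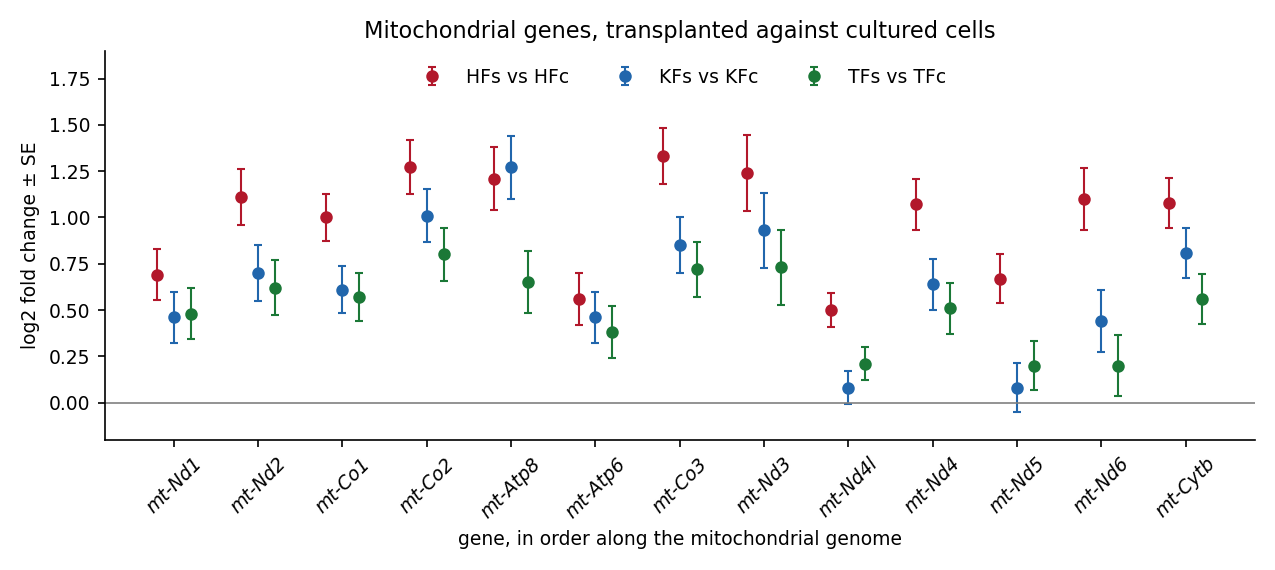
Log2 fold change of transplanted against cultured cells for the 13 mitochondrial genes, in their order along the mitochondrial genome, with error bars for the SE and a colour for each of the 3 organs. Heart cells lie highest for 12 of the 13 genes, and mt-Nd4l and mt-Nd5 of kidney cells lie nearest to 0, at 0.08.

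Copies of mitochondrial genes in the nuclear genome can take up their reads. mt-Nd4l and the nuclear pseudogene Gm10222 held identical counts in all 18 libraries, and 98.7% of the 75-base windows of mt-Nd4l occur in another annotated gene. The same holds for 99.9% of the windows of mt-Co3, 99.5% of those of mt-Co2 and mt-Atp6, 97.8% of mt-Nd3 and 61.5% of mt-Nd4. The level of mt-Nd4l is therefore uncertain. The main partners of the other 5 are not in the count table used here, so no split of reads with them can be seen in these counts, and Gm13341, a partner of mt-Co2 that is in the table, held 4 counts against 455611. mt-Co1 shared 39.8% of its windows, mt-Cytb shared none, and 60 of the 98 members shared none.

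In heart cells the 3 largest falls among nuclear members were in complex I. In kidney cells Ndufa11 was followed by Cox6b2 of complex IV and Uqcrq of complex III, and in tail cells Cox6b2 had the largest fall. Ndufa11, an accessory subunit that links parts of the membrane arm, was at 32.7, 32.2 and 32.1 CPM in HFc and 10.3, 11.6 and 10.3 in HFs. It was at 29.5, 24.4 and 31.7 in KFc and 10.2, 14.4 and 7.21 in KFs, and at 21.9, 23.7 and 23.1 in TFc and 10.8, 12.1 and 12 in TFs. The groups did not overlap, and Ndufa11 fell by 1.59 (SE 0.177), 1.43 (SE 0.175) and 0.98 (SE 0.175) on the log2 scale, with adjusted p of 2.3e-06, 9.25e-06 and 0.000442.

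Ndufb6, an accessory subunit of the distal membrane arm, was at 15.3, 17.4 and 16 CPM in HFc and 4.63, 4.89 and 6.72 in HFs. It had log2 fold changes of -1.58 and -0.91 in heart and kidney cells, and of -0.49 in tail cells with an adjusted p of 0.0516, so that it was called in the first 2. Ndufb4, another subunit of that arm, fell by 1.55, 1.01 and 0.63 on the log2 scale. Its processed pseudogene Ndufb4c shares 17.2% of its windows, held more counts than the gene itself (19331 against 3928) and fell by 1.53, 1.11 and 1.05, so reads of the pair may be split. The tail call of Ndufb4 was lost without TFc replicate 1 or 3 or TFs replicate 1 or 2 (adjusted p of 0.0718 to 0.0943). Ndufa4, whose product sits at the edge of complex IV, fell by 1.25, 1.00 and 0.96.

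Core subunits of complex I had smaller changes. Ndufs1, which carries iron-sulfur clusters, fell in tail cells by 0.34 on the log2 scale and was at -0.20 in heart cells (adjusted p = 0.0716) and -0.08 in kidney cells (adjusted p = 0.514). Ndufv1, the subunit that binds NADH, was at -0.33 in heart cells with an adjusted p of 0.0363, a call that DESeq2 (adjusted p = 0.0734) and 5 of the 6 fits without 1 heart library did not make. Ndufs3 was at 0.09, -0.01 and -0.19 (adjusted p = 0.582, 0.975 and 0.266).

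In complex II, Sdha, the flavoprotein that oxidises succinate, fell by 0.53, 0.29 and 0.22 on the log2 scale. It was at 178, 185 and 178 CPM in HFc and 116, 137 and 122 in HFs. Sdhc, a membrane anchor, fell by 0.68, 0.68 and 0.46, and Sdhb, the iron-sulfur subunit, by 0.59 and 0.32 in heart and kidney cells and was at -0.28 in tail cells (adjusted p = 0.0855). Sdhd, the other anchor, overlapped between HFs and HFc and between KFs and KFc and had log2 fold changes of -0.27, 0.10 and -0.20, none of them called (adjusted p = 0.0942, 0.539 and 0.251). The kidney call of Sdhb was lost without KFs replicate 1 or 3 or any KFc library (adjusted p of 0.0676 to 0.117), and the tail call of Sdha without TFc replicate 1 or 2 or TFs replicate 2 or 3 (0.0507 to 0.0781).

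In complex III, Uqcrq, a small subunit beside cytochrome b, was at 88.5, 85.6 and 85.1 CPM in HFc and 37.8, 37.3 and 30.8 in HFs. It was at 87.0, 82.6 and 80.2 in KFc and 36.2, 56.1 and 29.3 in KFs, and at 58.1, 56.2 and 52.6 in TFc and 31.5, 28.8 and 24.9 in TFs. Uqcrq fell by 1.29, 1.04 and 0.97 on the log2 scale, with no overlap. Uqcrc1, a core protein, fell by 0.81, 0.48 and 0.34. Uqcrfs1, the Rieske iron-sulfur protein, fell by 0.83 and 0.39 in heart and kidney cells and was at -0.29 in tail cells (adjusted p = 0.123). Uqcrc2, the other core protein, fell by 0.36 in heart cells and was at -0.20 and -0.04 in the others (adjusted p = 0.102 and 0.748). Calls lost without 1 library were those of Uqcrfs1 in kidney cells (without KFs replicate 1 or 3 or any KFc library, adjusted p of 0.0536 to 0.0983), of Uqcrc1 in tail cells (without TFc replicate 2 or TFs replicate 2 or 3, 0.055 to 0.0793) and of Uqcrc2 in heart cells (without HFs replicate 3, 0.0509).

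Complex IV held isoforms that moved in opposite directions. Ndufa4l2 is a paralogue of Ndufa4 and a known target of hypoxia-inducible factor that also marks pericytes. It was at 0.219, 0.339 and 0.295 CPM in HFc and 38.1, 41.6 and 54.3 in HFs, at 0, 0.0349 and 0.299 in KFc and 56.9, 67.4 and 6.45 in KFs, and at 0.742, 1.61 and 1.01 in TFc and 74.5, 35.7 and 55.7 in TFs. Every transplanted library lay above its cultured group, and KFs replicate 3 was the lowest of them. The log2 fold changes were 7.27 (SE 0.837), 8.49 (SE 0.922) and 5.64 (SE 0.714), and 8.96 in kidney cells without KFs replicate 3. Their size in heart and kidney cells depends on few counts in culture.

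Cox4i2, the isoform of COX4 known from lung and from hypoxic cells, was at 0.546, 0.339 and 0.590 CPM in HFc and 1.44, 2.60 and 4.14 in HFs. It was at 0.445, 0.118 and 0.351 in TFc and 2.78, 1.27 and 2.16 in TFs. In kidney cells the groups overlapped, at 0.298, 1.15 and 0.432 in KFc and 3.76, 3.30 and 0.441 in KFs. Cox4i2 rose by 2.48 (SE 0.718), 1.99 (SE 0.694) and 2.72 (SE 0.743) on the log2 scale. The kidney value was 2.44 without KFs replicate 3, and its adjusted p of 0.027 became 0.124 when only KFs and KFc were fitted, 0.105 and 0.0944 without KFc replicate 1 or 3, and 0.0972 and 0.0801 without KFs replicate 1 or 2. Cox4i1, the general isoform, fell by 0.89, 0.74 and 0.58 and lay at 60.3 to 72.6 CPM in HFs.

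**Figure D4:**
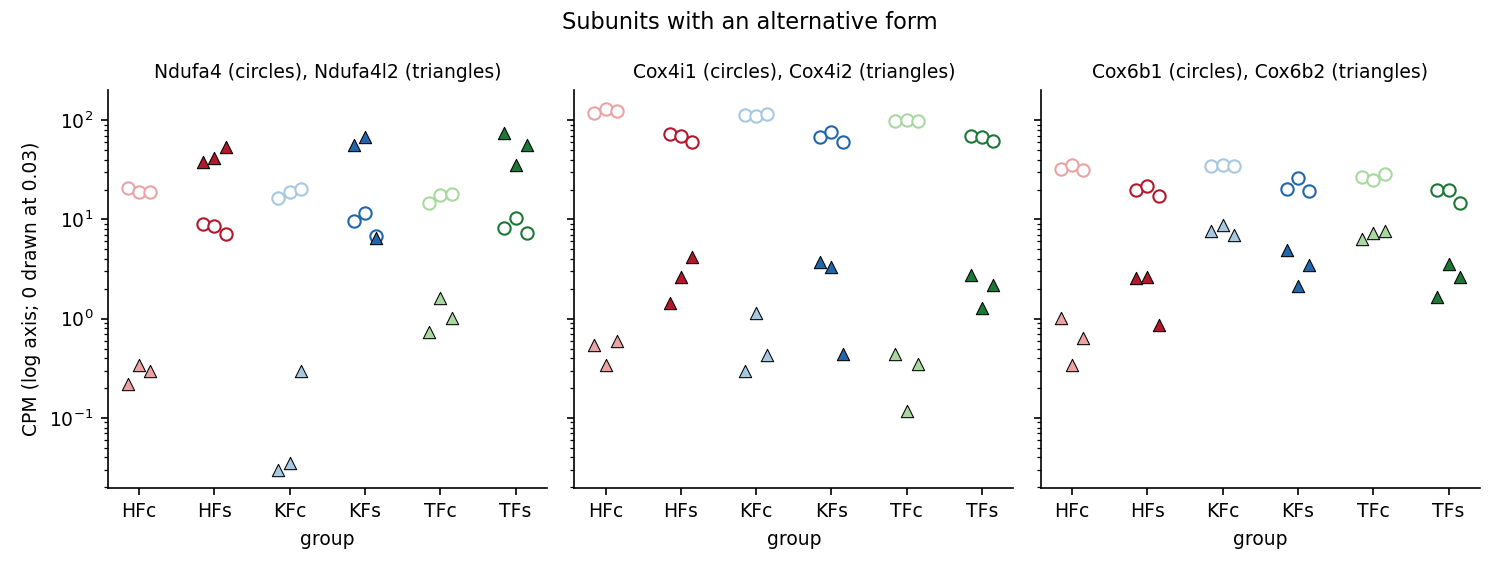
Levels of Ndufa4 and Ndufa4l2, Cox4i1 and Cox4i2, and Cox6b1 and Cox6b2 (circles for the general and triangles for the alternative form) in each library, in CPM on a log axis by group, with the single 0 drawn at 0.03. Ndufa4l2 went from at most 1.61 CPM in culture to between 6.45 and 74.5 after transplantation, while Ndufa4 was lower in every transplanted group.

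Cox6b2, the testis isoform of COX6B, already differed between organs in culture. It was at 1.02, 0.339 and 0.639 CPM in HFc, 7.72, 8.69 and 7.01 in KFc and 6.32, 7.38 and 7.67 in TFc. In HFs it was at 2.58, 2.64 and 0.873, in KFs at 4.93, 2.12 and 3.49 and in TFs at 1.66, 3.54 and 2.63, so the 3 transplanted groups overlapped. Cox6b2 rose by 1.59 (SE 0.464) in heart cells, where the groups overlapped, and fell by 1.16 (SE 0.409) in kidney and 1.44 (SE 0.417) in tail cells. The kidney call was lost without KFc replicate 1 or 2 or KFs replicate 2 (adjusted p = 0.0585, 0.0784 and 0.0859) and the tail call without TFs replicate 1 (0.0576). Cox6b1, the general isoform, fell by 0.76, 0.67 and 0.57.

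Of the other subunits of complex IV, Cox6a1, the general isoform of COX6A, fell by 1.28, 1.01 and 0.95 on the log2 scale and Cox8a by 0.90, 0.76 and 0.67. Cox7b fell by 1.27, 0.61 and 0.55, and Cox7a2, the general isoform of COX7A, by 1.18, 0.52 and 0.69. Cox6c fell by 0.80 and 0.53 in heart and kidney cells and was at -0.21 in tail cells (adjusted p = 0.146). Cox7a2l, the supercomplex factor, fell by 0.65 in kidney cells and was at -0.14 in heart and -0.24 in tail cells (adjusted p = 0.263 and 0.0902). Cox7a1, the isoform of heart and muscle, stayed at or below 1.01 CPM in every library and was not called in these 3 comparisons.

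In complex V the subunits of the catalytic head parted. Atp5b, the beta subunit that holds the catalytic sites, was at 478, 503 and 468 CPM in HFc and 214, 214 and 176 in HFs. It was at 397, 393 and 394 in KFc and 266, 379 and 264 in KFs, and at 288, 295 and 289 in TFc and 251, 208 and 192 in TFs. Atp5b fell by 1.26 (SE 0.132), 0.38 (SE 0.130) and 0.42 (SE 0.130) on the log2 scale, and the kidney call (adjusted p = 0.0234) was lost without any KFc library and without KFs replicate 1 (adjusted p of 0.0521 to 0.0956), and the tail call without TFs replicate 2 or 3 (0.0634 and 0.0846). Atp5a1, the alpha subunit of the same ring, was at 296, 299 and 303 CPM in HFc and 248, 269 and 221 in HFs, a log2 fold change of -0.28 with an adjusted p of 0.043 that was lost without any single HFc or HFs library, and it was at 0.11 and -0.08 in the others (adjusted p = 0.42 and 0.589). Atp5c1, the central stalk subunit gamma, fell by 0.50 in heart cells and was at -0.14 and -0.17 in kidney and tail cells (adjusted p = 0.345 and 0.257).

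**Figure D5:**
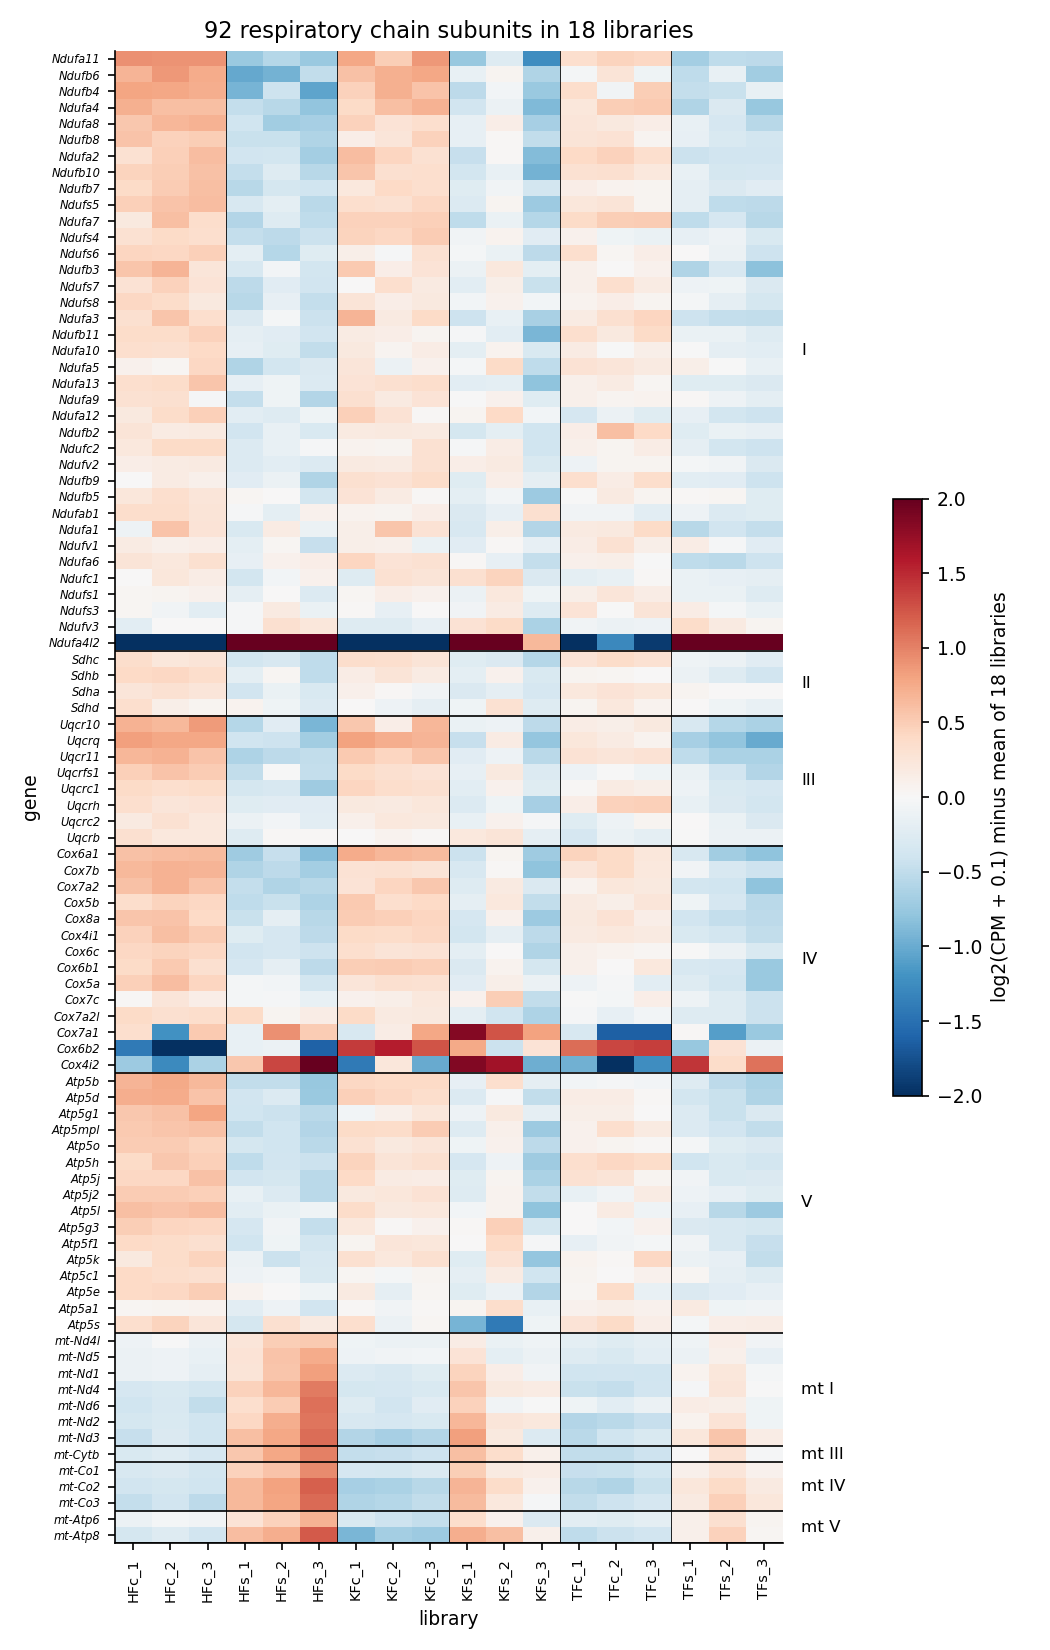
Level of 92 of the 93 tested members (one per line, by complex and origin) in the 18 libraries (columns), as log2(CPM + 0.1) minus the gene's mean over all libraries, with colours limited to -2 and 2. Mitochondrial genes are above their mean in the HFs columns, where most nuclear members are below it, and Ndufa4l2, Cox4i2 and Cox6b2 break the nuclear pattern.

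Gene length was set beside the nuclear fall, since the nuclear members are short: the median exon length of the 80 tested was 1578 bases, against 4434 for 14520 nuclear protein-coding genes. Genes of up to 1000 bases had medians of -0.37, 0.02 and -0.10 over all genes in heart, kidney and tail cells, and the 19 members of that length -0.78, -0.56 and -0.57. Over 4000 bases the medians were 0.05, 0.10 and 0.02 over all genes and -0.64, -0.38 and -0.34 over 11 members. The members lay lower than other genes in each length class, and the part of length was not tested further. Per kilobase of exon, the median level of the mitochondrial genes in HFc was 784 CPM and that of the nuclear members 20.6.

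Other genes of mitochondrial function are given by lists, beside the 28.4%, 22.7% and 20.2% of all genes that fell and the 28.0%, 26.1% and 18.6% that rose in heart, kidney and tail cells. Of 77 mitochondrial ribosomal protein genes, 59, 23 and 31 fell (76.6%, 29.9% and 40.3%) and 2 rose in each, with medians of -0.60, -0.17 and -0.29. Of 45 assembly factors, 22, 13 and 14 fell (48.9%, 28.9% and 31.1%) and 4, 3 and 1 rose. Of 13 enzymes of the citric acid cycle, 9, 6 and 9 fell (69.2%, 46.2% and 69.2%) and 1 rose in each. Of 12 other mitochondrial genes, such as import receptors, 12, 6 and 5 fell and 0, 1 and 0 rose, and Tomm20, an import receptor of the outer membrane, fell by 0.84, 0.87 and 0.77. Cycs, cytochrome c, fell by 0.94 in heart and 0.48 in tail cells and was at -0.01 in kidney cells (adjusted p = 0.972).

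Of 18 regulators of mitochondrial gene expression, 6, 6 and 4 rose (33.3%, 33.3% and 22.2%) and 7, 3 and 3 fell (38.9%, 16.7% and 16.7%), shares near those of all genes. Polrmt, the mitochondrial RNA polymerase, fell by 0.77, 0.61 and 0.37 while the transcripts it makes rose. Tfam, which packs and helps transcribe mitochondrial DNA, fell by 0.29 in heart cells and was at 0.28 and -0.15 in the others (adjusted p = 0.0523 and 0.313). Esrra, a nuclear receptor of energy metabolism, fell by 0.90, 0.96 and 0.68, and Nrf1 rose by 0.31, 0.76 and 0.56. Ppargc1a, a coactivator of mitochondrial genes, rose by 4.36 in heart cells and was at 1.21 and 0.91 in the others (adjusted p = 0.0786 and 0.188). Of 9 genes of the hypoxia response, 6, 7 and 8 rose (66.7%, 77.8% and 88.9%) and 1, 0 and 0 fell. Egln3, an oxygen-sensing hydroxylase, rose by 4.68, 4.82 and 4.77, and Slc2a1, a glucose transporter, by 1.27, 1.77 and 0.98.

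The second question is whether organs differed within culture. Between HFc and TFc, 32 members were called, where 41.9% of all genes were (20.9% higher and 21.0% lower). Nuclear members were higher in HFc in 31 of these cases, with Atp5b at 0.73 (SE 0.130), Ndufb6 at 0.72 (SE 0.185) and Uqcrq at 0.63 (SE 0.168) on the log2 scale, and Cox6b2 was lower by -3.41 (SE 0.465). With library size alone in place of TMM scaling, 25 were called, 18 higher and 7 lower, and the median of all genes moved to -0.16. When only the groups compared were fitted, 60 were called, 54 higher and 6 lower, where 62.4% of all genes were. Between KFc and TFc, 12 were called, 10 higher and 2 lower, where 36.4% of all genes were (17.8% higher and 18.5% lower). Ndufa4l2 was at -3.19 (SE 1.14), Ndufb6 at 0.65 and Uqcrq at 0.58. With DESeq2's size factors 19 were called, 18 higher and 1 lower, and in the fit of these groups alone 47, 42 higher and 5 lower, where 58.0% of all genes were.

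Between HFc and KFc, 5 members were called, where 29.2% of all genes were (15.1% higher and 14.0% lower): Cox6b2 at -3.55, Atp5g1, another gene for the c ring, at 0.55, Atp5e at 0.42, Atp5c1 at 0.33 and Sdha at 0.24. With DESeq2's size factors 3 were called, 2 of them higher, and with library size alone 2, 1 of them higher. In the fit of these groups alone 28 were called, 22 higher and 6 lower, where 51.0% of all genes were. None of the 13 mitochondrial genes was called between any pair of cultured groups by edgeR. At an unadjusted p under 0.05 there were 0 between HFc and TFc, 0 between KFc and TFc and 2 between HFc and KFc. Without KFs replicate 3, which enters these contrasts only through the shared spread, the counts of members were 41, 30 and 11. Past a log2 fold change of 1 was 1 member in each of these comparisons, against 19.5%, 16.3% and 14.9% of all genes.

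Between transplanted groups the heart cells stood above in mitochondrial genes. Between HFs and TFs, 15 members were called, where 23.1% of all genes were (10.3% higher and 12.7% lower), and 11 of the 13 mitochondrial genes were higher in HFs, with mt-Cytb at 0.69 (SE 0.134), mt-Nd2 at 0.67 and mt-Nd4 at 0.66. Ndufa6 and Cox7a2l were higher in HFs as well, by 0.51 and 0.52, and Ndufs4 and Sdha were both lower at -0.30. Between HFs and KFs, 23 were called, where 33.2% of all genes were (14.2% higher and 19.0% lower), 10 mitochondrial and 2 nuclear higher and 11 nuclear lower in HFs. Of these 10, 2 did not overlap between the groups, mt-Nd4l and mt-Co3, where 16.5% of all genes were higher without overlap. Among nuclear members, Atp5s was at 0.82, Ndufb6 at -0.60, Cox7a2l at 0.59 and Atp5b at -0.59.

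The number of calls between transplanted groups changed with the settings. The shares of all genes called in the alternative fits are not given here. The counts from these fits therefore describe the fits and are not results about the members. With the proximal tubule level as a covariate, edgeR called 0 members between HFs and TFs and 0 between HFs and KFs, with 14 in each at an unadjusted p under 0.05. The fit with this covariate held only the transplanted libraries. In fits of only the groups compared, edgeR called 13 between HFs and TFs, 0 between HFs and KFs and 0 between KFs and TFs, with 6 at an unadjusted p under 0.05 in each of the last pair. With library size alone, 36 members were called between HFs and TFs, 8 higher and 28 lower, and 45 between HFs and KFs, 4 higher and 41 lower, with the median of all genes at -0.25 in both. Without HFs replicate 3, 7 members were called between HFs and KFs, and without KFs replicate 3, 39. Between KFs and TFs, 12 were called, where 29.1% of all genes were (15.3% higher and 13.8% lower), 10 higher and 2 lower in KFs, with Cox7a1 at 2.59 (SE 0.941, adjusted p = 0.05 after rounding), Atp5s at -0.82 and Ndufb3 at 0.55. This count was 30 without KFs replicate 3, and no mitochondrial gene was called by edgeR (0 also at an unadjusted p under 0.05). Past a log2 fold change of 1 were 0 members between HFs and TFs, 1 between KFs and TFs and 0 between HFs and KFs, against 10.4%, 11.9% and 12.6% of all genes.

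The third question is whether the response to transplantation differed between organs, tested by interaction contrasts. Between the heart and tail responses 19 members differed, where 22.8% of all genes did (10.1% higher and 12.7% lower). Ndufb6 had a difference of -1.09 (SE 0.267), Atp5b of -0.84 (SE 0.184) and Cox6b2 of 3.03 (SE 0.624) on the log2 scale, and mt-Nd6, mt-Co3 and mt-Nd4 of 0.90, 0.61 and 0.57. In all, 15 nuclear members were lower and 3 mitochondrial genes with Cox6b2 higher. Between the heart and kidney responses 16 differed, where 26.2% of all genes did (10.7% higher and 15.5% lower), 12 lower and 4 higher, with Atp5g1 at -0.99 (SE 0.154), Atp5b at -0.88 and Cox6b2 at 2.75. With library size alone, 31 members differed from the tail response, 3 higher and 28 lower, and 28 from the kidney response, 2 higher and 26 lower, with the median of all genes at -0.14 in the latter. DESeq2 called 17 against the kidney response, 8 higher and 9 lower, and its size factors in edgeR gave 11, 5 higher and 6 lower.

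Between the kidney and tail responses edgeR called 0 members, where 11.1% of all genes were called. At an unadjusted p under 0.05 there were 4, and DESeq2 called 2. Past a log2 fold change of 1 were 2 members for heart against tail, 0 for kidney against tail and 1 for heart against kidney, against 11.3%, 5.91% and 13.1% of all genes. The heart contrasts rested in part on single libraries: without HFs replicate 3 the counts were 8 against the tail and 6 against the kidney response, and without KFs replicate 3 both were 33, and 4 members were called between the kidney and tail responses. In fits of only the groups compared the counts were 39, 14 higher and 25 lower, against the tail response and 5, 3 higher and 2 lower, against the kidney response. The shares of all genes in these fits are not given here, so the counts describe the fits and are not results about the members.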

How the data were processed

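RNA was measured in 18 libraries of cultured and transplanted mouse fibroblasts, made with a stranded total RNA kit and sequenced as 75-base single reads. The authors trimmed reads and ran RSEM with Bowtie, and they deposited expected counts per gene, which are whole numbers and not normalized. Their methods name GRCm38 while the submitters' processing notes name mm9, so which build was used is not settled. Library totals were 17927838 to 32245168 counts, and intervals and floors cover counting error only. Groups and replicate numbers came from sample titles. The study describes the libraries of a group as biological replicates, with a tube of cells for each transplant, and does not say whether they came from separate donor animals or pooled cells, so p-values measure the spread between these samples.

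Symbols and exon lengths came from GENCODE M21 and promoters from RefSeq. Expected counts as deposited were fitted in R 4.3.3 with edgeR 4.0.16 (filterByExpr, TMM, glmQLFit and glmQLFTest) on all libraries in a model of the 6 group means. The Benjamini-Hochberg adjustment covered 16577 genes. The common biological coefficient of variation was 0.24. Tables and figures used Python 3.11.15 with pandas 2.3.3, numpy 2.4.6 and matplotlib 3.10.9. On simulated counts for HFs against HFc over 14169 genes, 69 of 100 genes changed 2-fold and 100 of 100 changed 4-fold were found, with 9 false calls. The simulation changed 200 genes and gave all genes the same fixed spread. In the real comparison 56.4% of all genes were called, so these rates may not hold there.

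Named were all mitochondrial members, the 5 nuclear members with the largest non-overlapping change in each transplant comparison, isoforms of complex IV, core subunits, the 3 largest changes in each other contrast and the members not tested. Names outside this rule were chosen after their values were seen. The values of some core subunits are not reported here. Members and lists were chosen with earlier results of these data known. Alternatives were DESeq2 1.42.0, its size factors or library size alone, mitochondrial genes left out of the scaling, other filters, an adjusted p of 0.01, a fold-change limit, the replicate block, fits of only the groups compared, the tubule level as a covariate, and each library left out. The fits without KFs replicate 3 of contrasts it does not belong to were added after the data had been seen.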

Additional observations from a re-analysis of the deposited data

Results flagged for a closer look

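The response to transplantation differed between heart and tail cells for 19 members by the interaction contrast in edgeR, and for 16 between heart and kidney cells. Of all genes 22.8% and 26.2% differed, so that a smaller share of the members than of all genes did. Differences are given as log2 values, heart minus the other organ, with 3 libraries in each of the groups. Against tail cells the mitochondrial genes mt-Nd4, mt-Nd6 and mt-Co3 had differences of 0.57, 0.90 and 0.61, and the isoform Cox6b2 of 3.03. In complexes I and II the differences were -0.93 for Ndufb4, -1.09 for Ndufb6 and -0.32 for Sdha. In complexes III and IV they were -0.47 for Uqcrc1, -0.59 for Cox6c and -0.72 for Cox7b, and in complex V -0.84 for Atp5b and -0.69 for Atp5g1.

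Against kidney cells mt-Nd4l and mt-Nd5 had differences of 0.42 and 0.59, Cox6b2 of 2.75 and Cox7a2l of 0.51. The difference was -0.51 for Ndufs8, -0.65 for Cox7a2, -0.66 for Cox7b, -0.88 for Atp5b and -0.99 for Atp5g1. HFs replicate 3 held the largest mitochondrial share and HFs replicate 2 the largest sum of tubule markers, and their part in these differences was not tested beyond the fits without a library.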

How the results depend on the processing

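The 3 transplant comparisons kept their count of called members within 1.5 times under DESeq2, other scalings, other filters and the replicate block, and the medians of nuclear and mitochondrial members kept their sign in all fits. Where no share of all genes is given beside it, a count from an alternative fit describes that fit and is not a result about the members. With a log2 fold change limit of 1 added, the counts were 28, 9 and 3 for heart, kidney and tail transplants, 1 in each cultured comparison, 0 for HFs against TFs and against KFs, 1 for KFs against TFs, and 2 and 1 for the heart response against the tail and kidney responses. At an adjusted p under 0.01 they were 18 for HFc against TFc, 1 for KFc against TFc, 2 for HFc against KFc, 1 for KFs against TFs, 7 for HFs against KFs, and 7 and 3 for the heart response contrasts. Fits of only the groups compared gave 36 for KFs against KFc, 60, 47 and 28 for the cultured comparisons (HFc against TFc, KFc against TFc, HFc against KFc), 0 for KFs against TFs and for HFs against KFs, and 39 and 5 for the heart response contrasts; the cause was not tested. DESeq2 gave 20 for KFc against TFc and 2 for the kidney against the tail response. DESeq2's size factors gave 19, 3 for HFc against KFc, and 1 for the kidney against the tail response. Library size alone gave 2 for HFc against KFc, 36 for HFs against TFs, 45 for HFs against KFs, and 31 and 28 for the heart response contrasts. Without a filter the counts were 2 for HFc against KFc, 6 for KFs against TFs, 15 for HFs against KFs, and 11 and 7 for the heart response contrasts, and with a mean of at least 10 counts 3 for HFc against KFc and 1 for the kidney against the tail response. With tubule markers as a covariate they were 0, 1 and 0 for HFs against TFs, KFs against TFs and HFs against KFs.

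With 1 library left out, counts ranged from 74 to 84 for heart, 54 to 74 for kidney and 44 to 70 for tail transplants. They ranged from 21 to 41 for HFc against TFc, 6 to 30 for KFc against TFc, 2 to 11 for HFc against KFc, 11 to 23 for HFs against TFs, 1 to 30 for KFs against TFs and 7 to 39 for HFs against KFs. For the response contrasts the ranges were 8 to 33 (heart against tail), 0 to 4 (kidney against tail) and 6 to 33 (heart against kidney). The highest count was the fit without KFs replicate 3 in 11 of the 12 comparisons. Medians ranged from -0.71 to -0.59, -0.64 to -0.38 and -0.45 to -0.35 for nuclear members and from 0.95 to 1.25, 0.50 to 0.68 and 0.45 to 0.59 for mitochondrial members of heart, kidney and tail cells.

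Replicate numbers were not used to pair the samples in the main fit. Deviations of libraries with the same number had correlations between -0.14 and 0.08. Such values show no strong shared deviation, but they cannot tell whether libraries with the same number came from the same preparation. In the fit blocked by replicate number, the members called were 83, 65 and 59 for the transplants, 32, 12 and 7 in culture, 16, 10 and 21 between transplanted groups (HFs against TFs, KFs against TFs, HFs against KFs) and 17, 0 and 15 for the responses.

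Of 153 named fold changes, recomputed in 2239 alternative values, 2084 kept their direction and call, 99 lost the call, 45 gained one and 11 changed sign, none of them called. In kidney cells Ndufs3 was at 0.04 with library size alone, and with 1 library left out it ranged from -0.17 to 0.05. The ranges were -0.08 to 0.18 for Atp5a1, -0.12 to 0.18 for Sdhd, -0.01 to 0.09 for mt-Nd4l and -0.08 to 0.13 for mt-Nd5, and in tail cells -0.12 to 0.03 for Uqcrc2. With 3 libraries a group, small changes may be missed.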
